A study of Homo sapiens with 8 samples.

Results

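DEAD- and DEAH-box genes encode the largest family of RNA helicases, enzymes named after a short run of amino acids in their shared motor core. They spend ATP to pull RNA strands apart or to strip proteins from RNA. DEAD-box enzymes mostly open short duplexes in place, whereas many DEAH-box enzymes move along a strand and are switched on by partner proteins that carry a G-patch. Between them they serve the building of ribosomes, splicing, export of mRNA from the nucleus, translation and decay, and growing cells use many of them at once.

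The members described here were chosen by symbol: every gene whose symbol on the array starts with DDX or DHX and a digit. Of 18132 genes measured, 53 are members, 37 of them DDX genes and 16 DHX genes. Of the measured values, mean signals decided how each member was read, and the family itself was chosen with earlier results of these data known. Each gene was read from the probe set (a group of array probes for 1 transcript or a few) with the highest mean over all 8 arrays, regardless of group. DDX3Y, which lies on the Y chromosome, is counted but its values are not given, so values are shown for 52 members.

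RNA came from AGS, an established line of human gastric adenocarcinoma cells, grown in medium with fetal bovine serum. Each of 8 one-colour Affymetrix arrays measured 1 sample. Control cells account for 4 of them, and the other 4 come from cells exposed for 72 hours to 3.4 nM podofilox, a plant compound also called podophyllotoxin that blocks microtubule assembly. The labels name neither a solvent for the control cells nor whether replicates were separate cultures, so the spread behind the p-values, that between arrays, may be technical. They also give no time for the control cells, so any difference in culture time cannot be told apart from the drug. The comparison asks which helicase mRNAs differ in level after exposure to the drug.

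Values are log2 signals, normalized so that each gene is read against the other mRNAs of its array, and a difference is podofilox minus control. The words rose and fell are used where the adjusted p was under 0.05 by limma's moderated test over all genes, with Benjamini-Hochberg adjustment. In RNA of whole cultures, fewer cells with a transcript and less of it per cell cannot be told apart. As control means, the 7 epithelial markers ran from 7.41 (CDH1) to 13.28 (KRT19), the 8 fibroblast markers from 3.15 to 6.02 and the 6 endothelial markers from 4.72 to 6.93 (KDR). The 7 immune markers ran from 3.62 (PTPRC) to 13.60 (LYZ, which gastric epithelium also makes), with CD68 at 7.22. Of the epithelial markers CDX2 fell (-0.68) and CLDN4 rose (0.50), of the immune markers CD68 rose (0.28), of the endothelial markers CDH5 fell (-0.44), and 0 fibroblast markers passed the test. As mean levels per array, the epithelial list ran from 11.67 to 11.77 in controls and 11.71 to 11.77 with podofilox, the fibroblast list from 4.40 to 4.59 and 4.46 to 4.61, the immune list from 6.36 to 6.48 and 6.48 to 6.53, and the endothelial list from 5.50 to 5.81 and 5.53 to 5.65. The 18S ribosomal RNA control probe sets averaged 12.59 to 12.92 on control arrays and 12.01 to 12.42 on podofilox arrays, a separation whose part in the results below was not tested.

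With podofilox, 24 of the 53 helicase genes fell, 1 rose and 28 did not pass the test. Over all genes 12.5% fell and 8.55% rose, against 45.3% and 1 gene among the members. The family was singled out with these results in view, so its share is a description and not a test. The fallen members were lower by 10.3% (DDX54) to 33.6% (DHX9), with a median of 14.7%. The median difference was -0.14 over all members and 0.0069 over all genes. The 4 podofilox arrays lay wholly below the 4 control arrays for 28 members and wholly above for 1, where 15.6% and 10.6% of all genes did so.

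The counts were also read by signal strength. Of the 41 members at or above the median signal of all genes (6.99), 22 fell, against 21.5% of all genes that bright. Of the 12 dimmer members 2 fell (16.7%), DDX51 and DHX34. Over all 18132 genes 2260 fell, of which 1946 were among the 9066 at or above the median signal, so few dimmer genes fell. Both branches of the family were involved, with 16 of 37 DDX genes and 8 of 16 DHX genes lower. The SD within a group ran from 0.01 to 0.29 over the members on control arrays and from 0.01 to 0.21 on podofilox arrays.

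**Figure D1:**
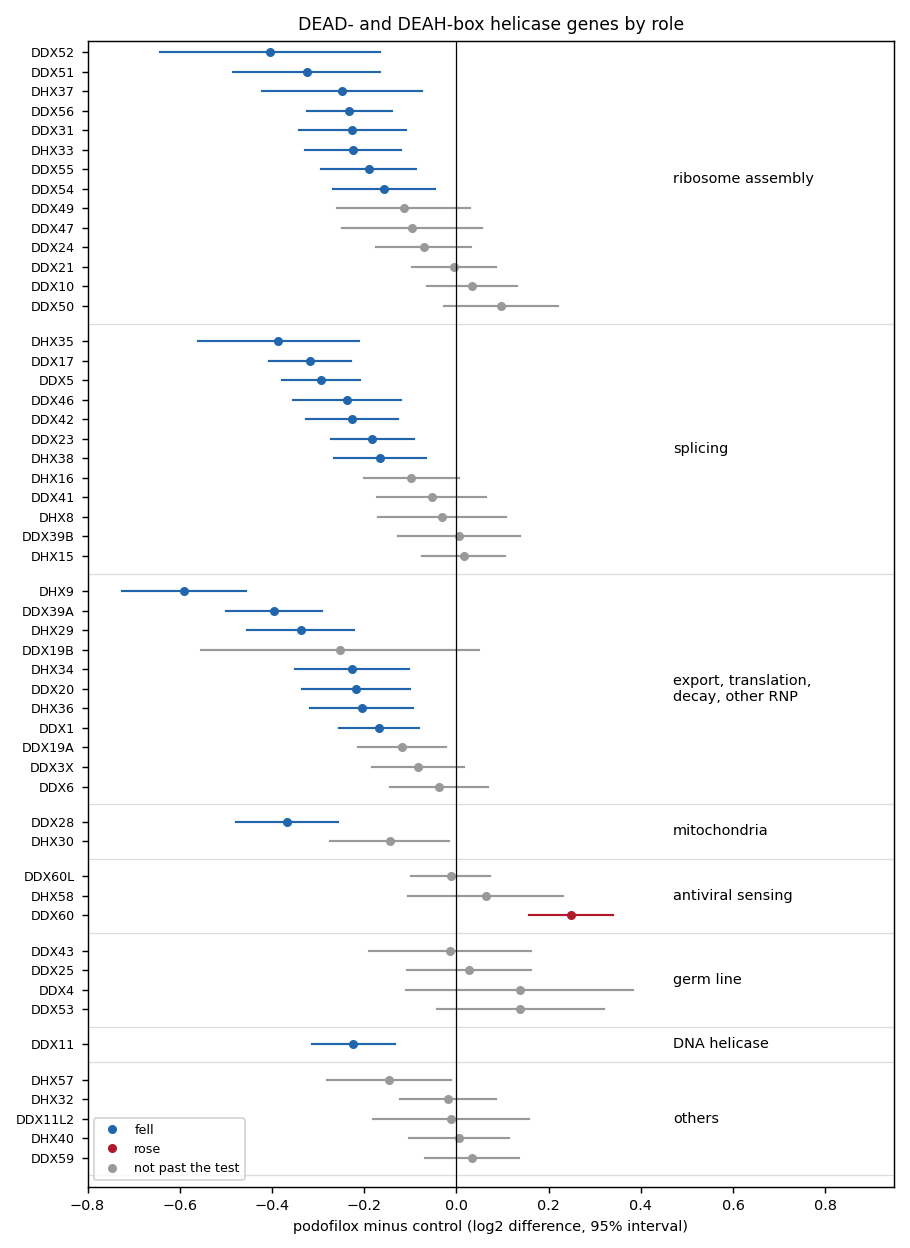
Difference between podofilox and control on the log2 scale for 52 helicase genes, grouped by role, each dot with its 95% interval (4 arrays a group, limma over all genes). Blue genes fell, the red gene rose and grey genes did not pass the test; DHX9 lies furthest to the left at -0.59 and DDX60 is the only red dot at 0.25.

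Promoter sequence was examined because so many members moved the same way. Promoter windows from RefSeq on GRCh38.p14 (250 bases before to 50 after the start site) were found for 47 of the 52 members, 10 of them with several start sites. DDX11L2, DDX49, DDX52, DHX33 and DHX58 had no entry. The 100 bases just before the start site are printed 5′ to 3′ on the strand of the gene for 8 members. They are the 2 with the largest falls that have an entry, 4 further fallen genes with a motif close to the start, and DDX60, which rose, beside its neighbour copy DDX60L, which did not pass the test. Capitals mark matches, on either strand, to the motifs named in the next paragraph.
DHX9 (chr1:182839247-182839346, plus strand): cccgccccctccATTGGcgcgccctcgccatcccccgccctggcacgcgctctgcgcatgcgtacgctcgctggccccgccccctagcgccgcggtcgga
DDX39A (chr19:14419384-14419483, minus strand): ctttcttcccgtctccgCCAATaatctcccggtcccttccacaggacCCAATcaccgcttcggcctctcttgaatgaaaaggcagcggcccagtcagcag
DDX1 (chr2:15591768-15591867, plus strand): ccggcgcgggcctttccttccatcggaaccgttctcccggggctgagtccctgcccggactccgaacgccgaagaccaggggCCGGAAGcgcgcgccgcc
DDX42 (chr17:63774070-63774169, plus strand): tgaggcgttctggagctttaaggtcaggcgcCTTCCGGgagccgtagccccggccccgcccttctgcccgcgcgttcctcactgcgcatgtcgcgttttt
DDX46 (chr5:134758679-134758778, plus strand): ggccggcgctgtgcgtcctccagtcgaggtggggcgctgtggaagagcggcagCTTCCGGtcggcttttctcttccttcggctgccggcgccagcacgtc
DDX54 (chr12:113185479-113185578, minus strand): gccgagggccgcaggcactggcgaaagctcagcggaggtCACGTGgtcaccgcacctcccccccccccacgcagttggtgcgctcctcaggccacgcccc
DDX60 (chr4:168318753-168318852, minus strand): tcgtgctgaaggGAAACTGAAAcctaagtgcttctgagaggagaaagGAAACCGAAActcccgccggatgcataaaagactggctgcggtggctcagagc
DDX60L (chr4:168480493-168480592, minus strand): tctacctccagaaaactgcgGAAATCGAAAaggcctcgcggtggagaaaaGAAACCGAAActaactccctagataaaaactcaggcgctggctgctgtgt

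The motifs were searched on both strands of the whole window, and a gene was counted if any of its windows held a match. CCGGAAG, the core bound by ETS factors, was present in 22 of 47 members (46.8%), against 16.9% of 14425 array genes with a window and 10.3% of all 35116 windows. It stood within 69 bases before a start in the fallen members DDX1, DDX31, DDX42 and DDX46. The same held for DDX19A, DDX19B, DDX21, DDX39B, DDX50, DDX59, DHX8, DHX16 and DHX57, which did not pass the test. CACGTG, the E-box bound by MYC and MAX, was present in 10 of 47 members (21.3%), against 10.9% of array genes and 7.26% of windows. CCAAT, the NF-Y box, was present in 25 of 47 (53.2%), against 42.4% and 34.6%. The 22 fallen members with a window did not stand out from the other 25 in counts: 11 against 11 for CCGGAAG, 6 against 4 for CACGTG and 12 against 13 for CCAAT, with no test made. GAAANNGAAA, an element of interferon-responsive promoters, was present in 3 of 47 members (6.38%), against 4.15% and 3.57%, and in 0 of the 22 that fell. DDX60 holds it at 88 and 53 bases before its start, and DDX60L at 80 and 50. The shares of array genes take in genes of every signal strength, whereas 41 of the 53 members lay at or above the median signal. No share matched for signal was made, so whether the contrasts are particular to helicases was not tested. A match is a run of letters and not a measured binding site.

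Helicases of ribosome assembly strip and refold precursor rRNA and its guide RNAs in the nucleolus. Of 14 measured, 8 fell and 0 rose, with a median difference of -0.17. This count and those of the roles below stand against 12.5% of all genes and 21.5% of those at or above the median signal. All values per array are given in the order of replicates 1 to 4.

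DDX56, which acts in the making of the large ribosomal subunit, had 9.31, 9.40, 9.39 and 9.38 on the control arrays and 9.13, 9.19, 9.12 and 9.12 on the podofilox arrays. The groups did not overlap and the difference was -0.23 (SE 0.04, adjusted p = 0.00322), or 14.9% lower. DHX33, which works in the nucleolus on rRNA transcription, had 9.21, 9.28, 9.20 and 9.26 on the control arrays and 9.07, 9.06, 8.93 and 8.998 on the podofilox arrays. Its difference was -0.22 (SE 0.05, adjusted p = 0.00738), again without overlap, but its 3 other probe sets did not fall (-0.11, 0.03 and 0.07), and DHX33 did not pass as a mean over its probe sets (-0.06, adjusted p = 0.403) or without the kinds named _x_at and _s_at, whose probes may match more than 1 transcript (-0.11, adjusted p = 0.182).

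DDX51, a large-subunit helicase, had 6.89, 6.84, 7.002 and 7.005 on the control arrays and 6.77, 6.67, 6.46 and 6.54 on the podofilox arrays. Podofilox arrays 3 and 4 were the lowest, so the difference of -0.32 (SE 0.07, adjusted p = 0.00979) split into -0.15 within replicates 1 and 2 and -0.50 within replicates 3 and 4. The other probe sets of DDX51 were at 0.008, not past the test, and -0.22, which fell. DDX31, also of the large subunit, had 8.05, 8.17, 8.08 and 8.12 on the control arrays and 7.94, 7.92, 7.76 and 7.89 on the podofilox arrays. It differed by -0.23 (SE 0.05, adjusted p = 0.0126), and 1 of its 6 other probe sets fell as well (-0.26). As a mean over its 7 probe sets the call of DDX31 ended (-0.13, adjusted p = 0.0724).

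DDX55, a further large-subunit helicase, had 8.74, 8.83, 8.70 and 8.80 on the control arrays and 8.56, 8.60, 8.62 and 8.53 on the podofilox arrays. It differed by -0.19 (SE 0.05, adjusted p = 0.0151). Its 3 other probe sets were at -0.22 and -0.31, which fell, and -0.29, not past the test. Its call ended without control replicate 4 (-0.18, adjusted p = 0.0543). DDX52, the counterpart of a yeast small-subunit helicase, had 8.97, 9.12, 8.74 and 8.86 on the control arrays and 8.25, 8.47, 8.71 and 8.64 on the podofilox arrays, the widest scatter among the fallen members. Replicates 1 and 2 carried most of its difference of -0.40 (SE 0.11, adjusted p = 0.0231), at -0.68 within them and -0.12 within replicates 3 and 4. Its call ended without control replicate 1 (-0.39, adjusted p = 0.0575), control replicate 2 (-0.34, adjusted p = 0.0582) or podofilox replicate 2 (-0.39, adjusted p = 0.0604). The other probe sets of DDX52 were at -0.19, which fell, and 0.01, not past the test.

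The calls of 2 members lay at the edge. DHX37, which frees the U3 guide RNA from the small-subunit precursor, differed by -0.25 (SE 0.08, adjusted p = 0.0479), and DDX54 of the large subunit by -0.16 (SE 0.05, adjusted p = 0.0487). Leaving out 1 array ended each call in 7 of 8 cases, with adjusted p up to 0.113 for DHX37 and 0.137 for DDX54. DHX37 kept its call without podofilox replicate 4, and DDX54 without control replicate 2.

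The other 6 nucleolar members did not pass the test. DDX21, which links RNA polymerase I with rRNA processing, was at 11.80 in controls and 11.79 with podofilox (interval of the difference -0.10 to 0.09). Its 2 other probe sets were at 0.01 and -0.03. DDX50, the close relative of DDX21, differed by 0.10 (interval -0.03 to 0.22), DDX10 by 0.03, DDX24 by -0.07 and DDX49 by -0.11. DDX47 was read from a dim probe set (3.12 in controls, near the lowest value of the table, 2.64), so its difference of -0.10 carries little information. Another of its probe sets is shared with a second gene and was not used.

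**Figure D2:**
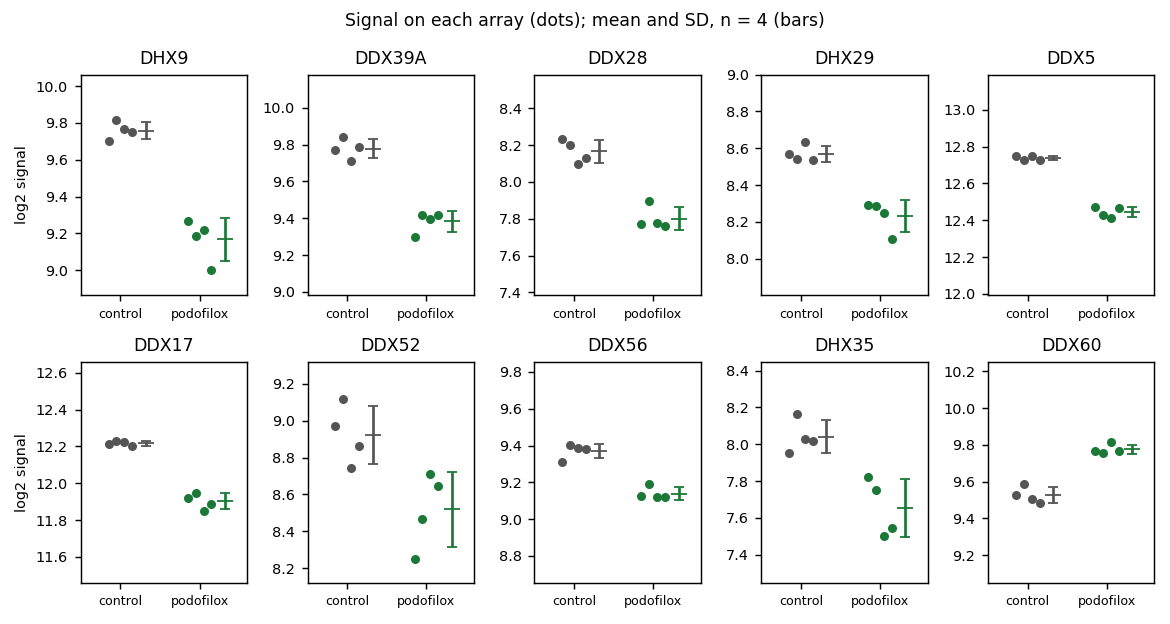
Log2 signal of 10 helicase genes on each of the 4 control (grey) and 4 podofilox (green) arrays, left to right in replicate order, with mean and SD beside them; every panel spans the same height. The green dots lie below all grey dots for each gene but DDX60, where they lie above, and DDX52 shows the widest scatter.

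The splicing machinery depends on helicases that drive it from step to step, and 7 of its 12 measured members fell while 0 rose (median difference -0.17). The paralogs DDX5 and DDX17, coregulators of splicing, transcription and microRNA processing, were among them.

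DDX5 had 12.75, 12.73, 12.75 and 12.73 on the control arrays and 12.47, 12.43, 12.41 and 12.46 on the podofilox arrays. These are tight groups far apart relative to their SD of 0.01 and 0.03, and the difference was -0.29 (SE 0.04, adjusted p = 0.000561), or 18.4% lower. All 5 probe sets of DDX5 were negative, from -0.31 to -0.18, and 4 of them passed the test. DDX17 had 12.21, 12.23, 12.23 and 12.20 on the control arrays and 11.92, 11.95, 11.85 and 11.89 on the podofilox arrays. The difference of -0.32 (SE 0.04, adjusted p = 0.000498) rests on 1 bright probe set of the _s_at kind. Its other probe sets were at 0.07 and -0.02, so dropping the _x_at and _s_at kinds turned the sign (0.07, adjusted p = 0.466), and the call ended with their mean (-0.09, adjusted p = 0.292).

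DDX42, which binds the branch-site complex SF3B, had 9.58, 9.61, 9.57 and 9.49 on the control arrays and 9.33, 9.36, 9.37 and 9.27 on the podofilox arrays. It differed by -0.23 (SE 0.04, adjusted p = 0.00565), with its other probe sets at -0.19, not past the test, and -0.18, which fell. DHX35, a spliceosome component whose step is less well known, had 7.95, 8.17, 8.03 and 8.02 on the control arrays and 7.82, 7.75, 7.50 and 7.54 on the podofilox arrays. Its difference of -0.39 (SE 0.08, adjusted p = 0.00641) was larger within replicates 3 and 4 (-0.50) than within replicates 1 and 2 (-0.27), and all 4 of its probe sets were negative.

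DDX23, a helicase of spliceosome activation, had 9.27, 9.29, 9.27 and 9.28 on the control arrays and 9.08, 9.16, 9.07 and 9.08 on the podofilox arrays. The control arrays agree to within an SD of 0.01 and lie above every podofilox array, for a difference of -0.18 (SE 0.04, adjusted p = 0.00972). The other probe set of DDX23 was at -0.115, not past the test, with overlapping groups. DDX46, which helps the branch site to be recognised, had 9.35, 9.46, 9.37 and 9.31 on the control arrays and 9.20, 9.10, 9.19 and 9.04 on the podofilox arrays. It differed by -0.24 (SE 0.05, adjusted p = 0.0103), and its other probe set fell too (-0.17). DHX38, which remodels the spliceosome between its catalytic steps, differed by -0.17 (SE 0.04, adjusted p = 0.0258), a call that ended on leaving out control replicate 1, 2 or 4 or podofilox replicate 3 or 4 (adjusted p up to 0.0891). The other probe sets of DHX38 were at -0.12, -0.10 and -0.14, none past the test.

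The other 5 splicing members did not pass the test. DHX15, which takes the spent spliceosome apart, differed by 0.02 (interval -0.07 to 0.11). DHX8, which releases spliced mRNA, differed by -0.03 (interval -0.17 to 0.11), DHX16 by -0.10 (interval -0.20 to 0.01) and DDX41 by -0.05. DDX39B, which serves both splicing and export, differed by 0.005 on its only single-gene probe set. A further 7 probe sets are shared with other genes and were not used, so DDX39B is only partly covered.

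Members that work in export, translation, decay and other ribonucleoprotein tasks numbered 12, of which 7 fell and 0 rose (median difference -0.21). DHX9, or RNA helicase A, unwinds long double-stranded RNA and also acts in transcription. It had 9.70, 9.82, 9.77 and 9.75 on the control arrays and 9.26, 9.19, 9.22 and 9.001 on the podofilox arrays. Every podofilox array lay below every control array. The difference was -0.59 (SE 0.06, adjusted p = 0.000167), or 33.6% lower, the largest of any member, and its 2 other probe sets fell by 0.54 and 0.48. Within replicates 1 and 2 it was -0.53 and within replicates 3 and 4 it was -0.65.

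DDX39A, which helps to load mRNA for export, had 9.77, 9.84, 9.71 and 9.79 on the control arrays and 9.30, 9.42, 9.40 and 9.42 on the podofilox arrays. It differed by -0.40 (SE 0.05, adjusted p = 0.000363), or 23.9% lower, and its second probe set fell as well (-0.32). DHX29, which lets the scanning small ribosomal subunit pass structured leaders, had 8.57, 8.54, 8.63 and 8.54 on the control arrays and 8.29, 8.28, 8.25 and 8.10 on the podofilox arrays. Podofilox replicate 4 was the lowest, and the difference was -0.34 (SE 0.05, adjusted p = 0.00149).

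DDX1, part of the ligase complex that joins the pieces of spliced tRNA, had 9.61, 9.63, 9.66 and 9.64 on the control arrays and 9.46, 9.48, 9.42 and 9.50 on the podofilox arrays. Small as it was, the difference of -0.17 (SE 0.04, adjusted p = 0.0122) separated the groups fully. DDX20, or Gemin3, of the SMN complex that assembles spliceosomal particles, had 8.63, 8.75, 8.52 and 8.60 on the control arrays and 8.43, 8.41, 8.38 and 8.40 on the podofilox arrays. It differed by -0.22 (SE 0.05, adjusted p = 0.0151), and the other probe set of DDX20 was at -0.18, not past the test.

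DHX34, which acts with UPF1 in nonsense-mediated decay, had 6.89, 6.90, 6.83 and 6.87 on the control arrays and 6.60, 6.69, 6.53 and 6.77 on the podofilox arrays. It differed by -0.23 (SE 0.06, adjusted p = 0.0162), but its other probe sets (-0.08 and 0.09) did not pass and the call ended with their mean (-0.07, adjusted p = 0.263). DHX36, which resolves G-quadruplexes, differed by -0.20 (SE 0.05, adjusted p = 0.0163), and all 5 of its probe sets lay between -0.23 and -0.17.

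The other 5 members of this role did not pass the test. DDX3X, which aids translation of structured leaders, differed by -0.08 (SE 0.04, adjusted p = 0.225) without overlap, with -0.16 within replicates 1 and 2 and -0.01 within replicates 3 and 4. DDX6, the core helicase of P-bodies, differed by -0.04 (interval -0.14 to 0.07). DDX19A and DDX19B, which release mRNA at the nuclear pore, differed by -0.12 (interval -0.21 to -0.02) and -0.25 (interval -0.55 to 0.05). DDX19B was dim and scattered, and it passed only when control replicate 4 was left out (-0.39, adjusted p = 0.026).

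Of the 2 mitochondrial members, DDX28, which helps to assemble the mitochondrial ribosome, had 8.23, 8.20, 8.10 and 8.13 on the control arrays and 7.77, 7.89, 7.78 and 7.76 on the podofilox arrays. Its difference was -0.37 (SE 0.05, adjusted p = 0.000711), or 22.5% lower, and another of its probe sets fell by 0.24. DHX30, of mitochondrial RNA granules, did not pass although its arrays did not overlap (-0.14 (SE 0.06, adjusted p = 0.11)). DDX11, a DNA helicase of sister chromatid cohesion, had 7.82, 7.74, 7.76 and 7.80 on the control arrays and 7.52, 7.60, 7.55 and 7.55 on the podofilox arrays. The groups did not overlap, and the difference on this _x_at probe set was -0.22 (SE 0.04, adjusted p = 0.00366). DDX11 has near-identical copies in the genome, its 3 other single-gene probe sets were positive (0.07, 0.18 and 0.10, none past the test), and its direction is therefore uncertain.

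The 1 member that rose was DDX60, an interferon-inducible helicase of antiviral defence. It had 9.53, 9.59, 9.50 and 9.49 on the control arrays and 9.76, 9.75, 9.81 and 9.77 on the podofilox arrays. The lowest podofilox array exceeded the highest control array, for a difference of 0.25 (SE 0.04, adjusted p = 0.00219), or 18.8% higher, on its only probe set. It was 0.20 within replicates 1 and 2 and 0.30 within replicates 3 and 4. Its copy DDX60L differed by -0.01 (interval -0.10 to 0.07), and DHX58, a regulator of cytosolic RNA sensing, by 0.06 (interval -0.10 to 0.23). Whether DDX60 and DDX60L differ in response was not tested.

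Germ-line helicases were dim and did not pass the test. DDX4, the marker of germ cells also called VASA, had 3.52, 3.84, 3.21 and 3.52 on the control arrays and 3.75, 3.69, 3.57 and 3.63 on the podofilox arrays, with overlapping groups and a difference of 0.14 (SE 0.11, adjusted p = 0.43). DDX53, a cancer-testis antigen, had 3.62, 3.65, 3.84 and 3.89 on the control arrays and 3.999, 3.99, 3.84 and 3.72 on the podofilox arrays, and differed by 0.14 (SE 0.08, adjusted p = 0.269). Both lay near the low end of the table in all samples. DDX25, of the testis, was at 3.53 ± 0.06 in controls and 3.55 ± 0.11 with podofilox (SD, n = 4 each), and DDX43, another cancer-testis antigen, at 5.23 ± 0.15 and 5.22 ± 0.10. DDX53 passed only within replicates 1 and 2 (0.36, adjusted p = 0.0369) and was at -0.08 within replicates 3 and 4. Of the members without an assigned role, DHX57 differed by -0.15 (adjusted p = 0.12), DHX32 by -0.02, DHX40 by 0.01, DDX59 by 0.03 and the pseudogene transcript DDX11L2 by -0.01.

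Genes measured by several probe sets allow these to be compared within the array. The 24 fallen members had 50 probe sets besides those that represent them. Of these 39 were negative, 20 fell and 0 rose when all 44988 single-gene probe sets were tested one by one, a test in which 10.2% of probe sets fell. These 50 belong to genes chosen because they fell on the same arrays, so the shares are not like for like. The counts are therefore no independent support for the calls. Of the 20 fallen members with several probe sets, 13 were negative on each of them and 13 had another probe set that fell. DHX9, DDX39A and DDX46 fell on every one of theirs. The representative probe sets of DHX37 (adjusted p = 0.0541) and DDX54 (adjusted p = 0.0622) did not pass when all probe sets were tested.

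**Figure D3:**
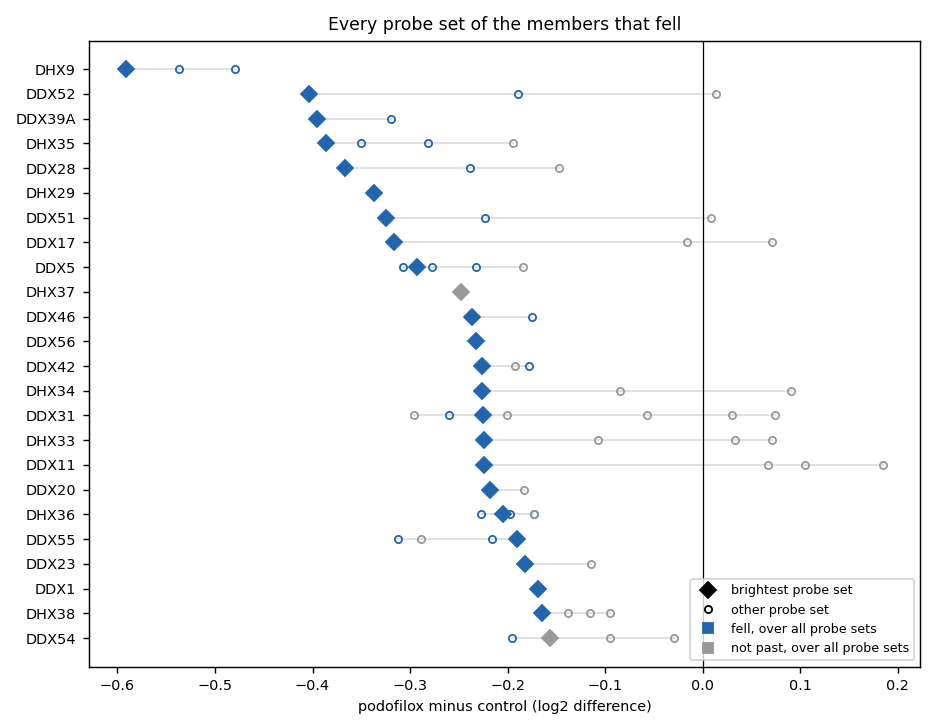
Difference on the log2 scale for every single-gene probe set of the 24 members that fell; diamonds are the brightest probe set, which represents the gene, and open circles the others. Blue marks fell when all probe sets were tested one by one. Every symbol of DHX9 and DHX36 lies left of 0, whereas DDX11, DDX17, DDX31, DDX51, DDX52, DHX33 and DHX34 have circles on its right. The diamonds of DHX37 and DDX54 are grey.

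The 18S control signal was alike within replicates 1 and 2 and within replicates 3 and 4 of each group, so differences were also read inside those pairs. The labels do not call these pairs batches, and nothing links the control arrays of a pair to its podofilox arrays. Since the arrays of all 24 fallen members did not overlap, their sign within each pair was fixed beforehand, and only the sizes carry information. These ran from -0.68 to -0.07 in the first pair and from -0.65 to -0.12 in the second. The pairs differed by over 1.5 times for 8 of them, among these DDX52, DDX51 and DHX37. On the 18S probe sets the groups were 12.86 to 12.92 and 12.01 to 12.06 in the first pair, but 12.59 and 12.41 to 12.42 in the second. From the first pair to the second the 18S signal thus went down in controls and up with podofilox. The pairs are therefore a split by replicate number and not known to be matched experiments.

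**Figure D4:**
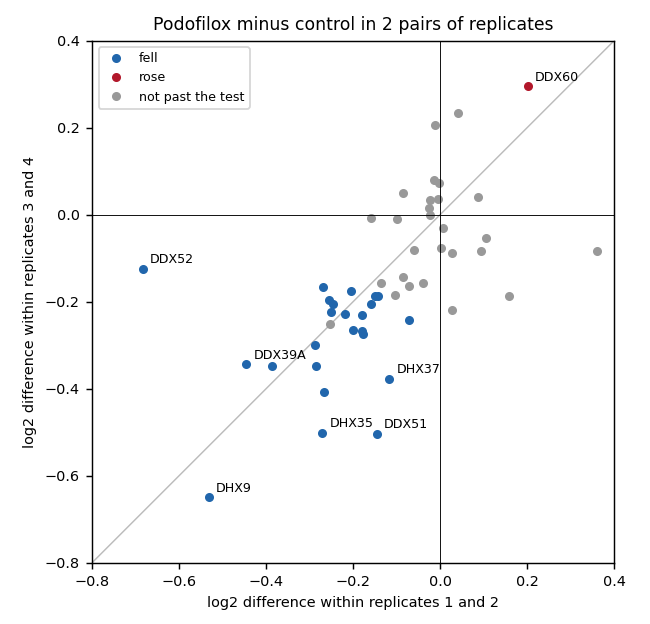
Log2 difference within replicates 3 and 4 (vertical) against that within replicates 1 and 2 (horizontal) for 52 members; the grey diagonal marks equality. Blue points are the fallen members, whose arrays did not overlap, so that their place left of and below 0 is given by the choice; DDX52 stands far from the diagonal at -0.68 and -0.12.

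Proteins that work beside these helicases were read from 3 lists of genes, whose counts stand against 12.5% of all genes that fell and 21.5% of those at or above the median signal. Of 22 nucleolar partners 12 fell (54.5%) and 0 rose, with a median difference of -0.19. NOP56, a core protein of rRNA-modifying particles, differed by -0.58 (SE 0.05, adjusted p = 0.000112), IMP3 of the small-subunit processome by -0.48 (SE 0.05, adjusted p = 0.000125) and the processome scaffold UTP20 by -0.54 (SE 0.06, adjusted p = 0.000195). NPM1 (0.06) and UTP3 (-0.05) did not pass. Of 16 G-patch proteins, partners of DEAH-box enzymes, 5 fell (31.2%) and 0 rose (median -0.14). RBM5, a splicing regulator, differed by -0.48 (SE 0.05, adjusted p = 0.000155) and GPATCH4 by -0.40 (SE 0.06, adjusted p = 0.0009). SON, a splicing cofactor, differed by -0.32 (SE 0.05, adjusted p = 0.00209) but did not pass as a mean over its probe sets (-0.11, adjusted p = 0.0822). The others, named after their values were seen, were SUGP1 (-0.33) and RBM10 (-0.17), and RBM10 passed without podofilox replicate 1 but not without any other single array (adjusted p up to 0.0911 over those 7).

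Of 26 partners in export, exon junctions, the SMN complex and P-bodies, 8 fell (30.8%) and 1 rose (median -0.11). GEMIN4, which binds DDX20 in the SMN complex, differed by -0.46 (SE 0.05, adjusted p = 0.000342), the export adaptor ALYREF by -0.32 (SE 0.05, adjusted p = 0.000982) and the pore protein NUP214 by -0.27 (SE 0.04, adjusted p = 0.00113). The gene that rose was DCP1A (0.19), a decapping cofactor, named after its value was seen.

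Of 15 RNA helicases outside the name rule 3 fell and 1 rose (median -0.07), a share near that among all genes at or above the median signal (21.5%). SUPV3L1, of mitochondrial RNA decay, differed by -0.28 (SE 0.05, adjusted p = 0.00198). SNRNP200, which unwinds paired small nuclear RNAs of the spliceosome, differed by -0.19 (SE 0.04, adjusted p = 0.0111). SNRNP200 no longer passed when _x_at and _s_at probe sets were dropped (-0.17, adjusted p = 0.0556). EIF4A1, a DEAD-box enzyme of translation initiation, also fell, named after its value was seen (-0.25, adjusted p = 0.0368), but EIF4A1 did not pass with array weights (-0.14, adjusted p = 0.113) or as a mean over its probe sets (-0.10, adjusted p = 0.105). It also did not pass when control replicate 1, 2 or 3 or podofilox replicate 3 or 4 was dropped (adjusted p up to 0.0857). Its close relative EIF4A2 rose by 0.33 (SE 0.06, adjusted p = 0.00253) on an _s_at probe set but was at -0.12 without that kind (adjusted p = 0.127).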

How the data were processed

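RNA of 4 control and 4 podofilox samples of AGS cells was measured on one-colour arrays. The deposited values are log2 signals that the authors made by RMA (background correction, normalization and summary per probe set), per the submitters' processing notes. The sources used here do not name its software or version. RMA ties each array to a shared distribution, so a change common to most mRNAs cannot be seen. Of 49395 probe sets, 102 are controls, 44988 name 1 gene, 1832 name several and 2473 have no name; only those with 1 gene were used. All 53 members matched RefSeq by Entrez ID. The number of arrays limits the precision.

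A linear model with the group as its single factor was fitted to 18132 genes by limma's lmFit and eBayes (version 3.58.1, R 4.3.3), with Benjamini-Hochberg adjustment and a threshold of 0.05. The procedure was tested on simulated data. Named with all values were the up to 6 members per role with the smallest p among those past the test, and the 3 largest differences each way whatever their p; up to 3 genes of each list were named by smallest p. Members and lists were chosen with earlier results of these data known. One gene of the name series is not reported here. Same-numbered replicates did not deviate together (r of -0.13, 0.09, -0.24 and 0.06), so the numbers were not taken as pairs. Alternatives covered low signals, normalization, variance estimation, probe set choice, array pairs, a replicate block, the plain t-test on the same values and each array left out. Figures were drawn with matplotlib 3.10.9.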

Additional observations from a re-analysis of the deposited data

Results flagged for a closer look

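A sample far from the other 3 of its group was found in 7 of 104 groups of 4 (52 members, 2 groups each), where chance gives about 1 in 20. Podofilox replicate 2 was the highest for DDX23 (9.16, others 9.07 to 9.08), DDX28 (7.89, others 7.76 to 7.78), DDX43 (5.36, others 5.15 to 5.18) and DDX56 (9.19, others 9.12 to 9.13). In DDX23, DDX28 and DDX56, which fell, it was thus the podofilox array nearest to the controls. Podofilox replicate 3 was the lowest for DHX37 (7.11, others 7.40 to 7.45), and without it the difference of DHX37 was -0.17 (adjusted p = 0.054, limma). Control replicate 1 was the highest for DHX57 (7.33, others 7.202 to 7.22), and podofilox replicate 4 for DHX58 (6.10, others 5.87 to 5.88).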

How the results depend on the processing

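The count of members that fell was 24 and ran from 17 to 25 under the alternatives that kept at least 3 arrays in each group; leaving out 1 array gave 20 to 22, and the members that rose stayed at 1 to 1. With 2 arrays a group it was 4 in replicates 1 and 2 and 11 in replicates 3 and 4, fits with fewer arrays; the 1 member that rose in replicates 1 and 2 was DDX53, not DDX60. The replicate block gave 17 members that fell, all among the 24, and 1 that rose. It ended the calls of DDX1, DDX52, DDX54, DDX55, DHX36, DHX37 and DHX38.

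Signs turned for DDX11 (0.033 with the mean of probe sets, 0.0666 without _x_at and _s_at probe sets), DDX17 (0.0708 without them) and EIF4A2 (-0.12 without them); the cause was not tested. Of the 25 calls, 13 held under every alternative run for them other than the fits of 2 arrays a group (DDX51, below the median signal, was not in the fit of brighter genes): DDX5, DDX20, DDX23, DDX28, DDX39A, DDX42, DDX46, DDX51, DDX56, DDX60, DHX9, DHX29 and DHX35. DDX19A passed among genes at or above the median signal (adjusted p = 0.0225), with array weights (0.0205) and with the plain t-test (0.0406), and DHX30 among the former (0.0455). EIF4A1 did not pass by the plain t-test (0.0941).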
